A study of Homo sapiens with 6 samples.

Results

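The RNA recovered with a tagged control protein was compared, gene by gene, with total RNA from cells that were also irradiated. Of the 6 libraries of the series 4 were used: the gel slices G20, G35 and G45 of a FLAG-GFP immunoprecipitation, and Total. They were chosen by their labels, and no measured value entered the choice. Green fluorescent protein (GFP) is not an RNA-binding protein, so the slices hold the RNA that PAR-CLIP, a method in which proteins are crosslinked to RNA and immunoprecipitated, recovers without a specific RNA-binding target.

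All 4 libraries came from HEK293, an established line of human embryonic kidney cells. For the slices, cells carried a doxycycline-inducible FLAG-GFP transgene and received 100 uM 4-thiouridine (4SU) and 1 uM doxycycline. After irradiation at UV 365 nm the lysates were digested with RNase T1, an enzyme that cuts RNA after G, and the FLAG-tagged protein was immunoprecipitated with the FLAG M2 antibody and run on a denaturing gel. G20, G35 and G45 were cut at about 20, 35 and 45 kDa from that gel. Total shared 4SU, UV light and RNase T1, but had no immunoprecipitation and no size selection of protein. Its RNA was freed with proteinase K and depleted of ribosomal RNA with RiboZero, a step not described for the slices. Only then was the RNA of Total cut with RNase T1. For the slices the enzyme acted in the lysate, with proteins still present, and again after immunoprecipitation. How this difference entered the comparison was not tested. Each of the 4 was a single library, so no difference below has a replicate check, no p-value is given, and intervals are exact Clopper-Pearson 95% intervals that cover counting error only, since reads carried no molecular identifiers. The 3 comparisons share 1 Total library, so a value that is low in Total is low in all of them.

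Most RNA in a cell is ribosomal. The rest includes mRNAs and their introns, long noncoding RNAs (lncRNAs), and small structured RNAs that work within protein complexes. Among the small RNAs, C/D box and H/ACA box small nucleolar RNAs (snoRNAs) guide chemical modification of ribosomal RNA, small nuclear RNAs (snRNAs) form the spliceosome, vault RNAs and Y RNAs are short transcripts of RNA polymerase III, and microRNAs (miRNAs) are loaded as strands of about the length of an RNase-protected fragment into Argonaute proteins. 4SU that is crosslinked to protein is read as C in place of T, so conversions from T to C are used as a mark of crosslinking. The paper adds that RNA with the labelled base also converts without a crosslink, at a lower rate. A conversion alone is therefore no proof of a crosslink, and the kinds of conversion were not separated here.

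The deposited tables list sites, which are stretches of hg19 covered by uniquely mapped reads with 0, 1 or 2 conversions, each with its read count. Each site was given to the GENCODE gene that held its midpoint on the same strand. Reads on the mitochondrial chromosome and at ribosomal RNA loci were left out, and a gene's level is its reads per 1000000 of the remaining reads in genes (RPM). The libraries held 38644636 (G20), 6187300 (G35), 7539669 (G45) and 35924998 (Total) reads, of which 88.3%, 23.6%, 25.7% and 56.0% lay at ribosomal RNA loci and 1.02%, 0.245%, 0.366% and 12.0% on the mitochondrial chromosome. That left 2152858, 2119030, 2399410 and 9711523 reads in genes, so 1 read was worth 0.464, 0.472, 0.417 and 0.103 RPM. Conversions per 100 of these reads were 42.9 in G20, 73.1 in G35, 67.7 in G45 and 21.8 in Total. As a check of the cell line in Total, 4 of 6 genes known from HEK293 cells reached 10 RPM (VIM 258, NEFL 37.5, KRT8 18.8 and PAX2 10.5 RPM), KRT18 (3.09 RPM) and NEFM (0.412 RPM) did not, and none of the 14 matched marker genes of other cell types did; the summed level of the other cell types' markers was 22 RPM in Total, 28.8 in G20, 85.9 in G35 and 24.6 in G45.

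The small RNAs are described first, with their sequences. Below are 30 bases from the most-read site of 4 C/D snoRNA loci in G20 and of 2 vault RNAs in Total. All are hg19 and 5′ to 3′ on the gene's strand; GAS5 is a lncRNA whose gene hosts C/D snoRNAs. Capitals mark the letters TGATGA, the core of the C box that gives C/D snoRNAs their name, and in the vault RNAs the letters GTTCGA, which are part of the internal promoter of these genes.
SNORD43 (chr22:39715091-39715120, minus strand): accacagaTGATGAacttattgacgggcgg
SNORD83B (chr22:39709886-39709915, minus strand): ctgttcagTGATGAggcctggaatgtgcgc
SNORD118 (chr17:8076830-8076859, minus strand): ttagaacaTGATGAttggagatgcatgaaa
GAS5 (chr1:173835137-173835166, minus strand): cctggaTGATGAtaagcaaatgctgactga
VTRNA1-2 (chr5:140098554-140098583, plus strand): cctctctgggtgGTTCGAgacccgcgggtg
VTRNA1-3 (chr5:140105787-140105816, plus strand): cctctctgggttGTTCGAgacccgcgggcg

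The letters TGATGA, searched on the sense strand, were present in the most-read site of 61 of 113 C/D snoRNA genes in G20 (54.0%) and of 56 of 105 in Total (53.3%), counting genes whose most-read site spanned 40 bases or more. They were present in 0 of 57 H/ACA snoRNA genes in G20 and in 228 of 10517 protein-coding genes (2.17%). A C box with another letter is not counted, so the genes without a match were not shown to lack the box.

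The mature miRNAs that lead the slices are shown next, from the RefSeq table on GRCh38.p14, with the seed (bases 2 to 8), which pairs with target mRNAs, in capitals. Neighbouring lines with the same capitals share a seed.
miR-18a-5p: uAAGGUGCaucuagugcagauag
miR-18b-5p: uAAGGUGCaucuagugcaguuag
miR-100-5p: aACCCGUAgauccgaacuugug
miR-10a-5p: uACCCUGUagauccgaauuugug
miR-22-3p: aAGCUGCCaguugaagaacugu
miR-19a-3p: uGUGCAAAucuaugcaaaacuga
miR-21-5p: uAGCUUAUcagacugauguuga
miR-184: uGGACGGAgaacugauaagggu
miR-148a-3p: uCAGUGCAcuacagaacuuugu
miR-148b-3p: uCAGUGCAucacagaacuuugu
miR-106b-5p: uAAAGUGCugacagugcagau
miR-20a-5p: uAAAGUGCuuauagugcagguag
let-7b-5p: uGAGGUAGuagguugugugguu

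Mature miRNAs were far more frequent in all 3 slices than in Total. Sites of at most 40 bases that shared at least 16 bases with a mature miRNA summed to 8149.6 RPM in G20, 16651 in G35 and 13708 in G45, against 485 in Total. The ratios to Total were 16.8 (16.3 to 17.4), 34.4 (33.3 to 35.4) and 28.3 (27.4 to 29.2). Sites on chromosome 8 were left out of these sums, since the sequence table used held no mature miRNA from there and a site could match a relative instead; with them the ratios were 14.1, 28.7 and 23.6. Of the 85 miRNAs that reached 10 RPM in at least 1 of the 4 libraries, 71 were 4-fold or more above Total in G20, 63 in G35 and 50 in G45, while 2, 2 and 3 were as far below. The median log2 difference from Total over the 85 was 3.71, 3.98 and 2.37, where fold changes here and below are on the scale log2(RPM + 1). Most of the 85 were under 10 RPM in Total and entered through a slice, which by itself favours counts above and high medians. Of all genes, entered through the slice or Total, 12.8%, 16.8% and 18.3% were above in G20, G35 and G45. The shares below were 5.02%, 33.1% and 34.9%.

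One miRNA supplied most of these reads in the upper slices. miR-18a-5p, of the miR-17-92 cluster that is active in dividing cells, stood at 2865 RPM in G20, 10823 in G35 and 9938 in G45, against 77.0 in Total. Its relative miR-18b-5p stood at 195, 746 and 821 RPM, against 10.2. Both were lower in G20 than in G35 and G45, and above Total in every slice.

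Other miRNAs had another order across the slices. miR-19a-3p, of the same cluster, went from 1016 RPM in G20 to 176 in G35 and 65.0 in G45, with 3.50 in Total. miR-148a-3p, an abundant miRNA of epithelial tissues, had the same order (185, 96.3 and 31.7 RPM, against 0.721), and so did miR-10a-5p (494, 209 and 138 RPM, against 5.56). Thus the slice with the smallest share of miR-18a had the largest shares of these 3 miRNAs.

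Several miRNAs were close to absent from Total. miR-22-3p had 12 reads there (1.24 RPM) and 288, 894 and 488 RPM in G20, G35 and G45. miR-100-5p had 3 reads in Total (0.309 RPM) and 145, 308 and 458 RPM in the slices, and the ratio in G45 was 1483 with a counting interval of 506 to 7201. miR-184 had no read in Total and 36.7, 180.3 and 107 RPM in the slices, which with a floor of 3 reads put it at least 119-fold, 584-fold and 347-fold above Total. miR-21-5p, one of the most abundant miRNAs of cultured cells, was at 249, 489 and 266 RPM, against 3.81. miR-205-5p and miR-203a-3p, which are known mainly from skin epithelium, were at 120.3, 309.6 and 216 RPM against 0.927, and at 74.8, 117 and 113 RPM against 0.412. Whether these reads came from the cultured cells was not tested.

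Summed over shared seeds, the 4 measured miRNAs with the seed AAAGUGC (miR-106b, miR-93, miR-20a and miR-17) were at 198, 281 and 66.3 RPM in G20, G35 and G45, against 3.71 in Total. The 5 measured let-7 members (seed GAGGUAG) were at 186, 289 and 177 RPM, against 2.68. The 2 measured miR-30 members (seed GUAAACA), miR-30e and miR-30a, were at 33.0, 122 and 23.3 RPM, against 4.22. Counted by gene, MIR30B was an exception, at 5.11 RPM in G20, no read in G35 and 1.67 RPM in G45, against 92.9 in Total. miR-5100 was another, at 172, 14.2 and 23.3 RPM against 52.4.

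**Figure D1:**
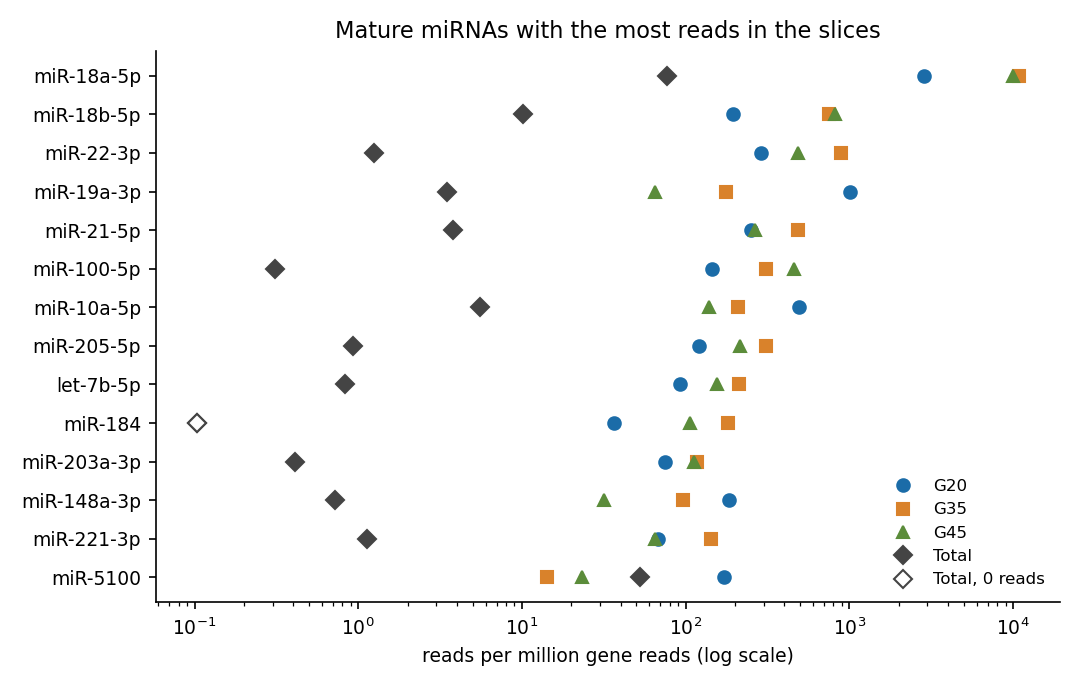
Levels of the most-read mature miRNAs in G20, G35, G45 and Total, in RPM on a log axis, 1 point per library and no error bars. An open point is a library with 0 reads, drawn at 0.103 RPM, the level of 1 read in Total. The slice points of miR-18a-5p lie between 2865 and 10823 RPM, against 77.0 in Total.

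The snoRNAs were split between the slices: above Total in G20, and below it in G35 and G45. All C/D box snoRNAs together stood at 24262 RPM in G20, 1113 in G35 and 1058 in G45, against 5235 in Total. That was 4.63-fold (4.58 to 4.69) more than Total in G20, and 4.70-fold and 4.95-fold less in G35 and G45. Of 110 C/D snoRNA genes with at least 10 RPM in G20 or Total, 70 were 4-fold or more above Total and 4 as far below. In G35 2 of 78 were above and 40 below, and in G45 2 of 79 were above and 38 below. For these and the next snoRNA counts, the shares over all genes were 12.8%, 16.8% and 18.3% above in G20, G35 and G45. The shares below were 5.02%, 33.1% and 34.9%.

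SNORD43, a guide hosted in an intron of the ribosomal protein gene RPL3, shows the split. It stood at 2417 RPM in G20, 76.0 in G35 and 88.4 in G45, against 165 in Total. SNORD83B, from a neighbouring intron of that gene, stood at 1749 RPM in G20, 54.3 in G35 and 144 reads in G45, against 16.4 RPM, 107-fold above Total in G20 (91.1 to 126) and within 4-fold of it in G35 and G45. SNORD85 (487 RPM in G20, 4.43 in Total) and SNORD97 (267 RPM in G20, 2.47 in Total) were among the 5 small RNA genes farthest above Total in G20. SNORD118, the U8 snoRNA needed for processing of large-subunit ribosomal RNA, was at 559.7, 41.5 and 23.8 RPM, against 117. An exception in G20 was SNORD58B, with no read there and 122 RPM in Total, at least 87.7-fold lower; it had 18.4 RPM in G35 and 19.6 in G45.

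GAS5, whose most-read site in G20 carries the C box shown above, was the lncRNA farthest above Total in G20 under the rule for named genes, at 2588 RPM against 113 (22.9-fold, 21.5 to 24.5). It was near Total in G35 (146 RPM) and G45 (123 RPM). SNHG5, another snoRNA host, was at 1021 RPM in G20 against 176, and at 36.8 and 27.9 RPM in G35 and G45. Among 23 such host genes that passed in each slice, 3 were 4-fold or more above Total and 2 below in G20. In G35 1 was above and 14 below, and in G45 1 above and 18 below. Over all genes 12.8%, 16.8% and 18.3% were above in G20, G35 and G45, and 5.02%, 33.1% and 34.9% below.

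The H/ACA box snoRNAs, which guide pseudouridylation, were less far above Total in G20 and farther below it in the other slices. They summed to 3597 RPM in G20, 192 in G35 and 295 in G45, against 2083 in Total (1.73-fold more, then 10.8-fold and 7.05-fold less). In G20 26 of 64 genes were above and 10 below; in G35 34 of 40, and in G45 35 of 43, were below, and none was above. SNORA81 had 49.7, 3.30 and 4.17 RPM, against 343 in Total. The small Cajal body RNAs, which guide modification of snRNAs, had the same order, at 748, 68.4 and 58.8 RPM against 393. SCARNA14 was below Total in all 3, at 7.90 RPM in G20, no read in G35 and 2 reads in G45, against 157 RPM in Total.

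Vault RNAs were the small RNAs most depleted from the slices. They stood at 3673 RPM in Total and at 156, 44.8 and 35.0 RPM in G20, G35 and G45, which was 23.5-fold, 81.9-fold and 105-fold lower. VTRNA1-3 (chr5:140105743-140105831) had 21755 reads in Total (2240.1 RPM) and 93, 7 and 15 reads in the slices (43.2, 3.30 and 6.25 RPM). VTRNA1-2 had 1373 RPM in Total and 76.6 in G20. Y RNAs with their copies were at 19108 RPM in Total and 3728, 807 and 1585 RPM in the slices; RNY4 had 373 RPM in Total, 61.3 in G20 and no read in G35. RNY1 went the other way in G20, with 740.4 RPM against 134.

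7SL RNA, the RNA of the signal recognition particle, followed the vault RNAs, with 3505 RPM in Total and 866, 257 and 149 in the slices. U2 snRNA, which pairs with the intron branch point, had 27872 RPM in Total and 6235, 1254 and 775 RPM in the slices. U1 snRNA, which pairs with the start of introns, did not: it had 845, 499 and 233 RPM, against 469. 7SK RNA, which restrains transcription elongation, had 500.3, 155 and 248 RPM, against 207. Reads that map to several places were not counted, and these families have many near-identical copies, so the split between copies such as RN7SL499P, RNU1-115P and RN7SKP232 is uncertain.

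**Figure D2:**
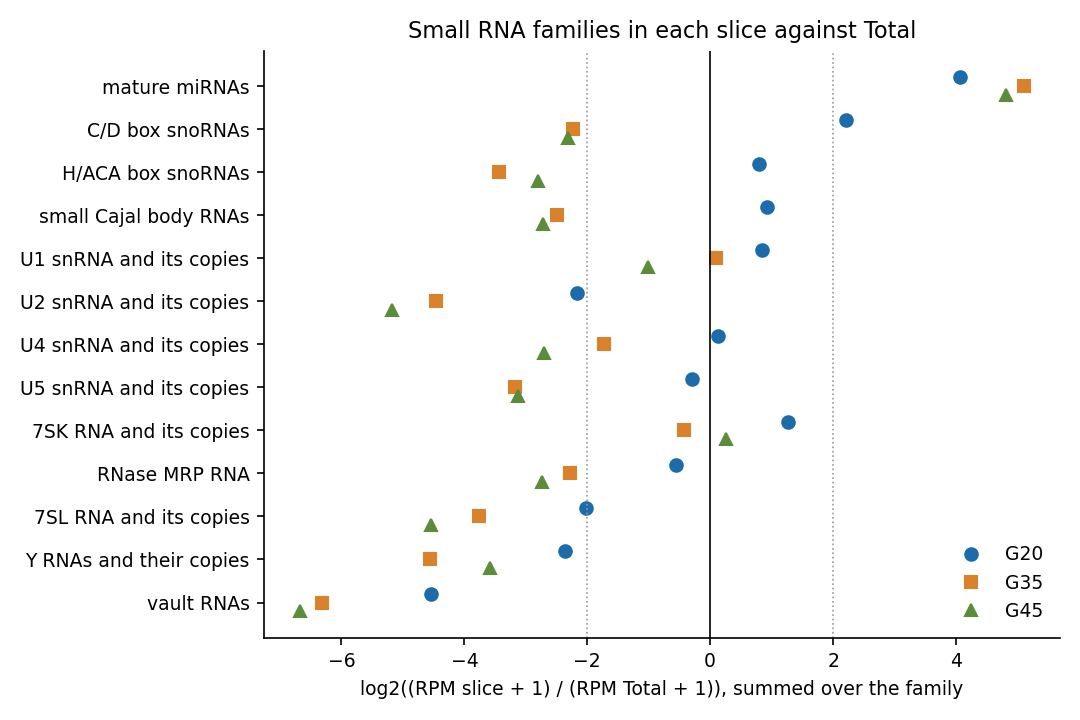
Log2 ratio of each small RNA family's summed level in a slice to its level in Total, with 1 RPM added to both, 1 point per slice and no error bars because each library is single. Dotted lines mark 4-fold differences; C/D box snoRNAs lie at 2.21 in G20 and at -2.23 and -2.31 in G35 and G45, and vault RNAs at -4.55, -6.32 and -6.67.

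By class, snoRNA genes held 2.89% of gene reads in G20, 0.140% in G35 and 0.143% in G45, against 0.773% in Total. snRNA genes held 0.899%, 0.217% and 0.130%, against 3.01%. miRNA genes held 0.426%, 0.406% and 0.271%, against 0.108%; the mature miR-18a and miR-19a sites lay in exons of the lncRNA MIR17HG (4001, 11146 and 10035 RPM, against 150.1) and are not in that share. lncRNAs held 13.2%, 20.1% and 21.5%, against 8.71%. Small RNA shares rest on few sites with many reads: by number of sites, snRNA genes held more in every slice than in Total (0.0348%, 0.0707% and 0.0512%, against 0.0154%), and snoRNA genes did so in G35 and G45 as well (0.163% and 0.153%, against 0.0239%).

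Over all genes, the slices differed from Total more in G35 and G45 than in G20. Genes entered with at least 10 RPM in the slice or in Total, and a gene was called above or below at a difference of 4-fold or more. In G20 1805 of 14055 genes were above (12.8%) and 705 below (5.02%). In G35 2346 of 13975 were above (16.8%) and 4620 below (33.1%). In G45 2604 of 14227 were above (18.3%) and 4961 below (34.9%). For every called gene the counting interval of the ratio excluded 1. At these depths that follows from the 10 RPM minimum and the 4-fold rule, so it adds no support to the calls.

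These splits depend on where the middle is set. The median log2 differences of all genes were -0.18, -1.44 and -1.50 for G20, G35 and G45. Measured from that median, 2012 genes were above and 486 below in G20. The same counts were 3385 and 1073 for G35, and 3733 and 873 for G45. With RPM taken over all reads outside the mitochondrial and ribosomal loci, in genes or not, 990 were above and 2361 below in G20, 1247 above and 7539 below in G35, 1324 above and 8016 below in G45. For a size of differences between libraries of 1 kind, the HuR replicate pair of the same series differed 4-fold or more in 13% of 12238 genes, against 17.9%, 49.8% and 53.2% for the slices against Total.

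**Figure D3:**
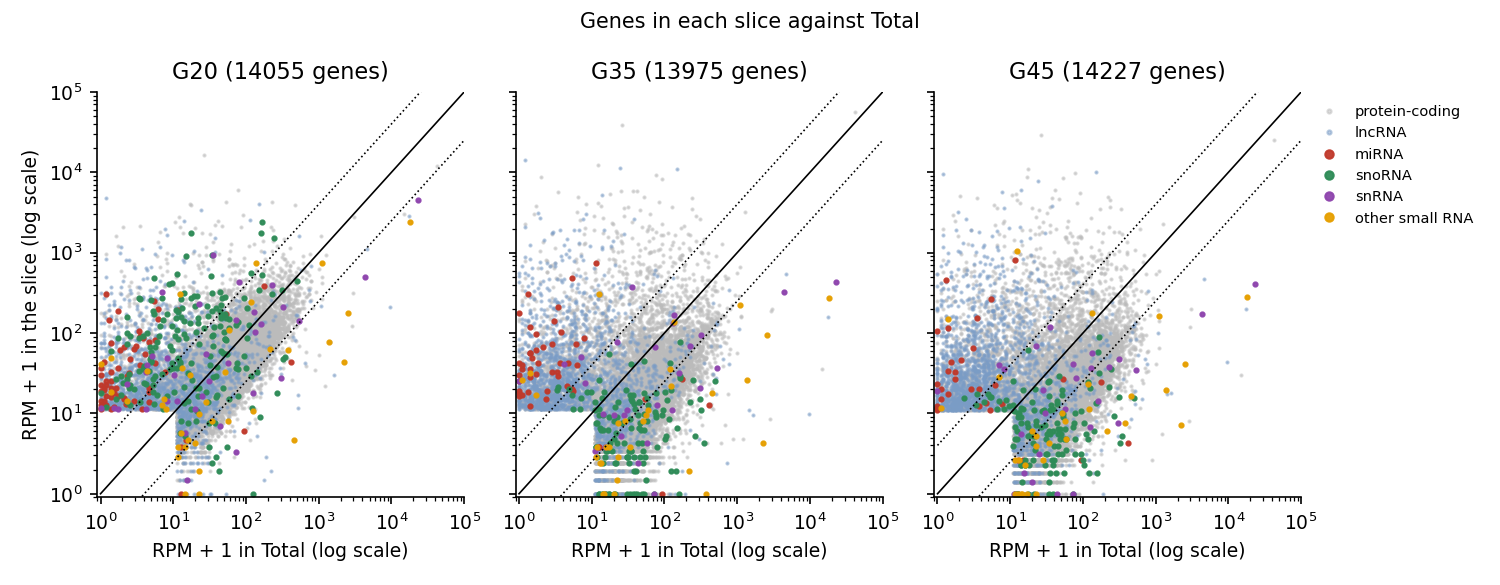
Each gene's level in a slice (vertical axis) against Total (horizontal axis), in RPM plus 1 on log axes, 1 panel per slice and 1 coloured point per gene of the classes in the key with at least 10 RPM in either; pseudogenes and minor classes are not drawn. Lines mark equality and a 4-fold difference; 12.8%, 16.8% and 18.3% of all genes that passed lie above the upper line in G20, G35 and G45, and 5.02%, 33.1% and 34.9% below the lower one.

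Genes above Total were mostly read at 1 site in the slices. In 79.4% of those genes in G20, 76.1% in G35 and 74.6% in G45 a single site held over 50% of the gene's slice reads. For genes below, the same was counted in Total, where they are higher, and held for 25.1%, 9.20% and 8.93%. Most-read sites held 87.3%, 91.4% and 89.9% of the above genes' summed slice reads, but 27.8%, 17.2% and 15.8% of their Total reads. For genes below they held 65.0%, 30.3% and 26.1% in the slices, and 71.6%, 38.4% and 36.8% in Total. The above genes held 32.1%, 60.2% and 63.6% of the slices' gene reads and 1.88%, 2.20% and 2.47% of Total's. Without each gene's most-read site, 665 of the 1805 genes above in G20 were still above (36.8%), as were 1486 of 2346 in G35 (63.3%) and 1676 of 2604 in G45 (64.4%).

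The single-site genes reached the largest differences. GRM3-AS1, an antisense transcript at the glutamate receptor gene GRM3, had 4732, 14071 and 9617 RPM in the slices and 2 reads in Total, a ratio of 22977 in G20 (6359 to 189752). At least 99.9% of its slice reads lay at 1 intronic site. NPFFR1, a neuropeptide receptor gene, had 2108, 8859 and 5012 RPM against 1.03. ADRB1, the beta-1 adrenergic receptor gene, had 1597, 3018 and 2976 RPM against 0.618, and ARSD, a sulfatase gene, 1194, 3801 and 2456 RPM against 0.721. ZNF229, the gene with the most reads in G20 and G45, had 16246, 38983 and 29569 RPM against 25.2, of which at least 99.9% lay at 1 intronic site. A read count at 1 site says nothing of the rest of the transcript, and whether these reads came from human RNA was not tested.

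HASPIN, which encodes a mitotic histone kinase, was a single-site gene that was high in Total as well. It had more reads than any other gene in Total and in G35, at 41765 RPM in Total and 11973, 56756 and 25542 RPM in G20, G35 and G45, with at least 99.6% at 1 site in each library.

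Reads at the genes above Total lay mostly in introns and at short sites. At those genes 74.9% of slice reads in G20, 86.4% in G35 and 86.5% in G45 were intronic, against 31.9%, 49.2% and 50.8% at the genes below and 41.8%, 63.3% and 72.6% at those within 4-fold. The same above genes were mostly intronic in Total as well, at 60.5%, 74.9% and 75.9%. Their reads lay at short sites: 72.5%, 96.6% and 89.3% at sites of at most 25 bases, against 17.4%, 44.0% and 44.3% at the genes below and 35.6%, 60.9% and 69.4% at those within 4-fold; in Total the above genes had 62.2%, 79.2% and 79.5%. The opposite strand was counted for protein-coding genes alone. At those above, sites with reads on the opposite strand numbered 41.0, 65.3 and 67.7 per 100 sites on the gene's strand, against 14, 22.5 and 21.5 at those below. At the same above genes in Total they numbered 33.9, 36.3 and 35.8. By reads the order was turned, with 13.5, 20.0 and 24.2 opposite reads per 100 at the genes above, against 25.5, 89.9 and 119 at those below. Sites with at least 100 reads and a mean of almost exactly 1 or 2 conversions per read held 12.5%, 25.5% and 26.9% of gene reads in the slices and 3.49% in Total. Leaving those sites out, 1894, 2766 and 3001 genes were above.

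Once genes with a dominant site were set aside, the genes farthest above Total were long genes read in their introns. The named genes below had at least 5 sites, no site with over 50% of the reads, and 50 RPM or more in the higher library. This rule was applied in the slice that named a gene, so 1 site could hold over 50% in another slice. It held 83.3% for KCNK2 in G35, 68.9% and 60.9% for SYNPR in G35 and G45, and 79.3% and 62.2% for RELN there. RGS6 had 51.3% in G20 and 72.4% in G45 at 1 site, and GRIK2 51.5% in G45. MARCHF11 had 85.0% in G20 and 85.8% in G45. In at least 1 other slice 1 site also held over 50% for KCNJ15, PKHD1, HS3ST4, DGKB, CPA6, TMEM132D, GRM7, SEMA5A and NEK11. THSD7B, a thrombospondin-repeat gene (chr2:137523115-138435288), had 316 RPM in G20, 349 in G35 and 662 in G45, against 10.8 in Total, with at least 99.0% of the slice reads in introns and 40, 29 and 48 sites. GRIK2, a kainate-type glutamate receptor subunit gene (chr6:101410577-102529497), had 236, 467 and 456 RPM against 12.9. Both were above Total in each slice, and their reads in Total were entirely intronic as well.

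KCNJ15, a potassium channel gene, was the farthest above Total in G20 of the protein-coding genes named, at 316 RPM against 2.27 (139.6-fold, 91.5 to 224), with 481 RPM in G35 and 941 in G45. Its most-read site held 49.5% of the G20 reads, and whether the reads of that site came from human RNA was not tested. KCNK2, another potassium channel gene, had 79.9, 192 and 193 RPM against 4.43. SYNPR, a synaptic vesicle protein gene, had 154, 259 and 251 RPM against 4.43. PKHD1 was an exception to the reading in introns, with 57%, 30.7% and 50.3% of its reads intronic in G20, G35 and G45, against 97.7% in Total. RELN was one in G20 alone, with 52.3%, 98.6% and 99.0%, against 96.8%. A single site held 43.0%, 69.3% and 49.7% of the PKHD1 reads in the slices, and 47.4% of the RELN reads in G20. PKHD1, the polycystic kidney disease gene, had 92.9, 135 and 165 RPM against 4.43, and RELN, an extracellular matrix protein gene of neurons, 124, 230.3 and 171 RPM against 6.49. PDZRN4 was nearer in G35 (29.3 RPM) than in G20 (73.4) and G45 (47.9), against 4.22.

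In G35 the list was led by MARCHF11, a ubiquitin ligase gene, at 156 RPM against 1.03 (151-fold, 81.2 to 318), with 10 reads in Total. RGS6, a regulator of G-protein signalling, had 557 RPM in G35, 175 in G20 and 222 in G45, against 7.21. HS3ST4, a heparan sulfate sulfotransferase gene, had 289 RPM against 6.38, DGKB, a diacylglycerol kinase gene, 252 against 7.93, LINGO2, a neuronal membrane protein gene, 507 against 17.8, and CPA6, a carboxypeptidase gene, 161 against 5.15. Between 97.7% and 100% of the reads of these genes in G35 were intronic.

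In G45 THSD7B led, 61.2-fold (50.2 to 75.3) above Total. TMEM132D, a membrane protein gene of the nervous system, had 901 RPM in G45 against 20.1, with 191 in G20 and 807 in G35. GRM7, a metabotropic glutamate receptor gene, had 448 RPM against 10.2, SEMA5A, a semaphorin gene, 208 against 5.46, SORCS2, a sorting receptor gene, 423 against 12.4, and NEK11, a kinase gene, 558 against 18.9. Each was also above Total in G20 and G35.

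Very long genes of the neural adhesion and channel type gave the same picture as a list. All 30 listed genes passed. The shares of all genes were 12.8%, 16.8% and 18.3% above in G20, G35 and G45, and 5.02%, 33.1% and 34.9% below. In G20 13 were above Total and 0 below, with a median log2 difference of 1.72 against -0.18 for all genes; in G35 19 and 0, with 2.27 against -1.44; and in G45 21 and 0, with 2.92 against -1.50. With exonic sites alone the medians were -0.92, 0.28 and 0.51, against -0.01, -0.98 and -0.91 for all genes. OPCML, a neuronal cell adhesion gene, had 181, 433 and 386 RPM against 15.7. ERBB4, a receptor tyrosine kinase gene, was the lowest of the list in each slice, at 149.6, 184 and 168 RPM against 522. PCDH9, the highest of the list in G35, had 3747 RPM there against 127, but 96.9% of it at 1 site.

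The difference from Total moved with gene length across all protein-coding genes. In G35 the median log2 difference was -2.31 for genes spanning under 10 kb, -2.04 for 10 to 30 kb, -1.68 for 30 to 100 kb, -0.95 for 100 to 300 kb and 0.77 for genes over 300 kb. In G45 the same medians were -2.39, -2.15, -1.73, -0.96 and 0.93. G20 had no such order, with 0.40, -0.20, -0.66, -0.57 and 0.30. Of the genes over 300 kb, 21.6%, 31.9% and 34.7% were above Total in G20, G35 and G45. The shares were 7.37%, 10.2% and 11.2% for all protein-coding genes that passed, and 12.8%, 16.8% and 18.3% for all genes. With exonic sites alone the medians in G35 lay between -1.22 and -0.66.

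**Figure D4:**
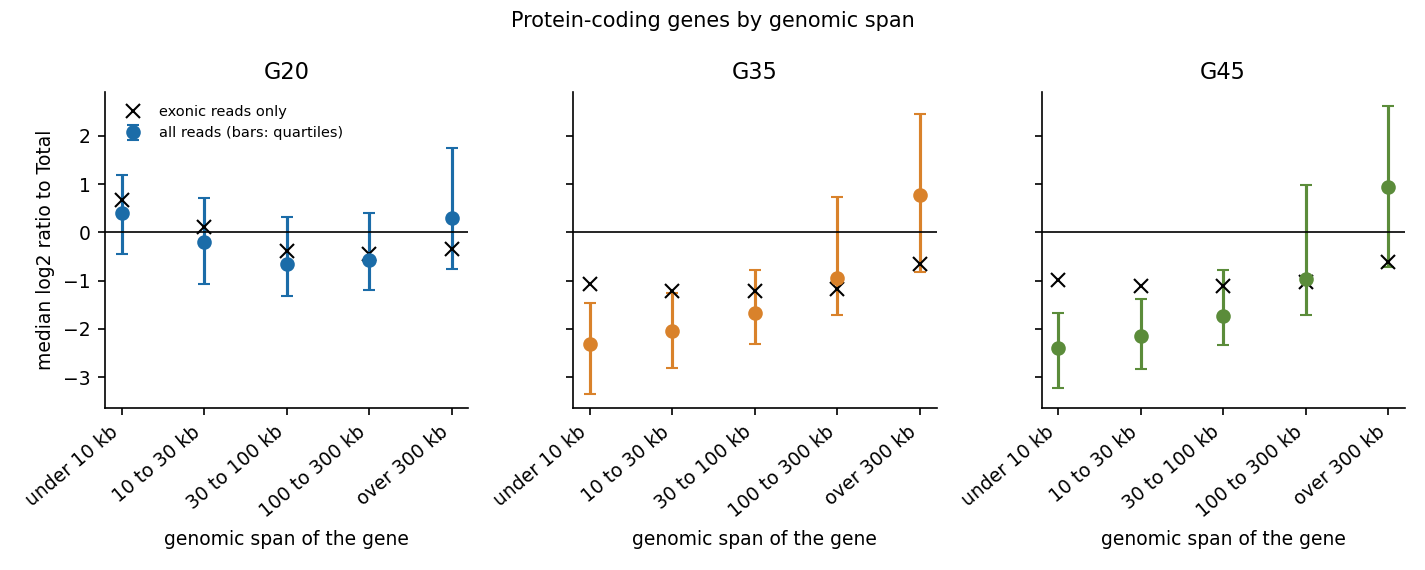
Median log2 ratio to Total of protein-coding genes by the length of their genomic span, 1 panel per slice, with bars for the quartiles over genes and crosses for the median of exonic reads. In G35 and G45 the medians rise from -2.31 and -2.39 for genes under 10 kb to 0.77 and 0.93 for genes over 300 kb.

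Introns held 52.4% of the reads in protein-coding genes in G20, 75.1% in G35 and 79.0% in G45, against 45.2% in Total. Coding sequence held 29.1%, 14.9% and 11.5%, against 30.6%. By number of sites the order was turned, with 54.4%, 70.9% and 72.1% of sites in introns, against 74.4% in Total, so that a share of reads and a share of sites answer differently.

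Of the named lncRNAs above Total, GAS5 was read at sites counted as exonic (0.233% of its G20 reads were intronic). Its most-read site in G20, the one with the C box shown above, held 40.7% of those reads. Whether they came from a hosted snoRNA or from the spliced lncRNA was not tested. MIR17HG was also read at sites counted as exonic (at most 0.279% intronic in a slice), which include the mature miR-18a and miR-19a sites. The others were read mostly in introns. EIF1B-AS1 had 53.0, 77.9 and 142 RPM against 6.49, and SGO1-AS1 59.9, 109 and 138 RPM against 9.99. AQP4-AS1, antisense to the water channel gene AQP4, had 144, 252 and 284 RPM against 5.05. RMST, a lncRNA of neural progenitors, had 25.1, 95.3 and 60.4 RPM against 1.34, PCAT1 156, 209 and 373 RPM against 10.9, and SOX9-AS1 26.0, 38.7 and 87.1 RPM against 4.43. MIR3667HG had 21.8, 23.6 and 56.7 RPM against 1.65. Of lncRNA genes that passed, 680 of 1727 were above in G20 (39.4%), 1051 of 1997 in G35 (52.6%) and 1182 of 2140 in G45 (55.2%), while 95, 267 and 281 were below. The shares of all genes were 12.8%, 16.8% and 18.3% above, and 5.02%, 33.1% and 34.9% below. A gene that is low in Total could enter through the slice alone, which favours calls above. Antisense transcripts overlap genes on the other strand, and their reads were separated by strand alone.

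Other lncRNAs, several of them snoRNA hosts, stood below Total. THUMPD3-AS1 had 82.8 RPM in Total, 40.9 in G20, 3 reads (1.42 RPM) in G35 and 4.17 RPM in G45; the ratio in G35 was 0.0171 (0.00352 to 0.0502). OIP5-AS1, a cytoplasmic lncRNA that binds miRNAs and HuR, had 65.0 RPM in Total and 14.9, 4.25 and 16.3 in the slices. SNHG3 had 353 RPM in Total and 225, 41.1 and 25.8 in the slices, and SNHG15 62.8 in Total and 65.0, 12.7 and 4.17. In G20 SNHG4 (11.6 RPM against 68.1), KANSL1L-AS1 (11.6 against 67.1) and JPX (88.3 against 442) were the lowest named. DPH5-DT had 11.1, 4.72 and 4.17 RPM against 54.5. ZFAS1, also a snoRNA host, had 464 RPM in Total and 80.4, 29.7 and 7.50 in the slices.

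Protein-coding genes below Total spanned shorter stretches of the genome than those above. The median span of the protein-coding genes below was 36.1 kb in G20, 26.8 kb in G35 and 26.8 kb in G45, against 79.4, 106 and 106 kb for those above. Since all 4 libraries are bulk RNA, fewer transcripts per cell and fewer crosslinked or recovered fragments per transcript cannot be told apart.

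In G20 the named gene farthest below was RBIS, a factor of ribosome assembly, at 4 reads (1.86 RPM) against 68.5. CCT2, a subunit of the TRiC chaperonin that folds actin and tubulin, had 36.2 RPM against 326 in Total (9-fold lower, ratio 0.111, 0.0876 to 0.139). CCT2 was at 25.5 and 20.8 RPM in G35 and G45, and RBIS at 1.89 and 3.33. SDHD, a subunit of respiratory complex II, had 5.11 RPM in G20 against 52.3, CFL2, the muscle cofilin, 5.11 against 58.5, and PBK, a mitotic kinase, 7.43 against 74.4. SKA3, a kinetochore protein gene, had 6.04 RPM against 63.8, ARV1, a lipid homeostasis gene, 5.11 against 60.1, and COMMD2 4.18 against 50.2. Each of these 8 genes was at most 14.6 RPM in G35 and G45, except CCT2.

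In G35 the 8 lowest protein-coding genes without a dominant site had no read at all, so their differences are bounds from a floor of 3 reads. RPF1, a factor of large-subunit ribosome assembly, had 125 RPM in Total, 14.9 in G20 and 3.33 in G45, at least 88.3-fold lower in G35. EIF6, which keeps ribosomal subunits apart, had 112 RPM in Total, 46.4 in G20 and 4.17 in G45. SSR4, of the endoplasmic reticulum translocon, had 87.2 RPM in Total and 21.8 in G20. FYTTD1, an mRNA export adaptor (chr3:197464050-197514467), had 66.7 RPM in Total, 13.5 in G20 and no read in G35 or G45. TMEM185B, ATP13A1 and GNPAT had 59.4 to 77.5 RPM in Total and 13 to 43.7 in G20.

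In G45 MLX, the partner of the glucose-sensing factor MondoA, had 86.6 RPM in Total and no read, at least 69.3-fold lower, with 13 RPM in G20 and 2.36 in G35. SRM, spermidine synthase, had 67.4 RPM in Total, 30.7 in G20, 3.30 in G35 and none in G45. RPL15, a protein of the large ribosomal subunit, had 275 RPM in Total, 84.1 in G20, 11.8 in G35 and 2.50 in G45 (6 reads). DFFA, the inhibitor of the apoptotic DNase, had 111 RPM in Total and 2 reads in G45, a ratio of 0.00750 (0.000907 to 0.0271). ABRAXAS2, RTL6 and FLAD1 had 55.8 to 78.7 RPM in Total and no read in G45, and 15.8 to 46.4 RPM in G20.

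The housekeeping lists had medians below that of all genes in G35 and G45, and most of their members were within 4-fold of Total in G20. Of 75 cytosolic ribosomal protein genes that passed in G35, 54 were below and 1 above, with a median of -2.66 against -1.44 for all genes; in G45 52 of 75 were below and 1 above, with -2.54 against -1.50; and in G20 4 were below and 4 above of 76, with 0.12 against -0.18. RPL6 was the lowest in each slice, at 20.9, 3.78 and 4.58 RPM against 1208 in Total, but 98.0% of its Total reads lay at 1 site. RPL24, the one above in G35 and G45 (250.1 and 329.7 RPM against 19.7), had at least 98.7% of its reads there at 1 site, and RPS6 was the highest in G20 (237 RPM against 38.9).

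The other housekeeping lists are to be read against the 33.1% and 34.9% of all genes below Total in G35 and G45. Of 75 nuclear genes of the respiratory chain, 4 were below Total in G20, 50 in G35 and 44 in G45. Among 15 SR splicing factors 12 were below in G35 and 12 in G45, with medians of -2.60 and -2.46, and in G20 the list had 0 calls and a median of -1.16. Of 25 chaperone genes 17 were below in G35 and 17 in G45, and of 31 proteasome genes 20 and 19. The 25 hnRNP genes, whose proteins coat nascent transcripts, had 11 below in each of G35 and G45, near the share of all genes, with medians of -1.87 and -1.95. Translation factors had 2, 23 and 25 below of 39, and glycolysis genes 0 of 16, 9 of 15 and 9 of 15. GAPDH, for example, had 262 RPM in G20, 10.4 in G35 and 18.3 in G45, against 471 in Total.

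Lists that differ in transcript type were spread as follows, to be read against the shares of all genes. Those were 12.8%, 16.8% and 18.3% above in G20, G35 and G45, and 5.02%, 33.1% and 34.9% below. Of 33 histone genes that passed in G20, whose mRNAs lack introns and poly(A) tails, 2 were above and 3 below, with a median of 0.44; in G35 16 of 26 and in G45 16 of 27 were below. Chromosome 19 zinc finger genes stood lower than all genes in G20, with 9 of 53 below, 0 above and a median of -1.36 against -0.18, and in G35 and G45 25 of 52 and 30 of 54 were below. Long nuclear lncRNAs stood near the median of all genes, at -1.33 in G35 and -1.44 in G45, and TUG1 among them had 256 RPM in Total, 105 in G20, 38.7 in G35 and 29.6 in G45. MEG3 was the highest of that list, at 6.50, 14.2 and 21.3 RPM against 1.65. Early-response and short-lived transcription factor genes had 2 above of 22 in G20, no more than the 12.8% of all genes, and 13 of 18 below in G35 and 10 of 18 in G45.

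**Figure D5:**
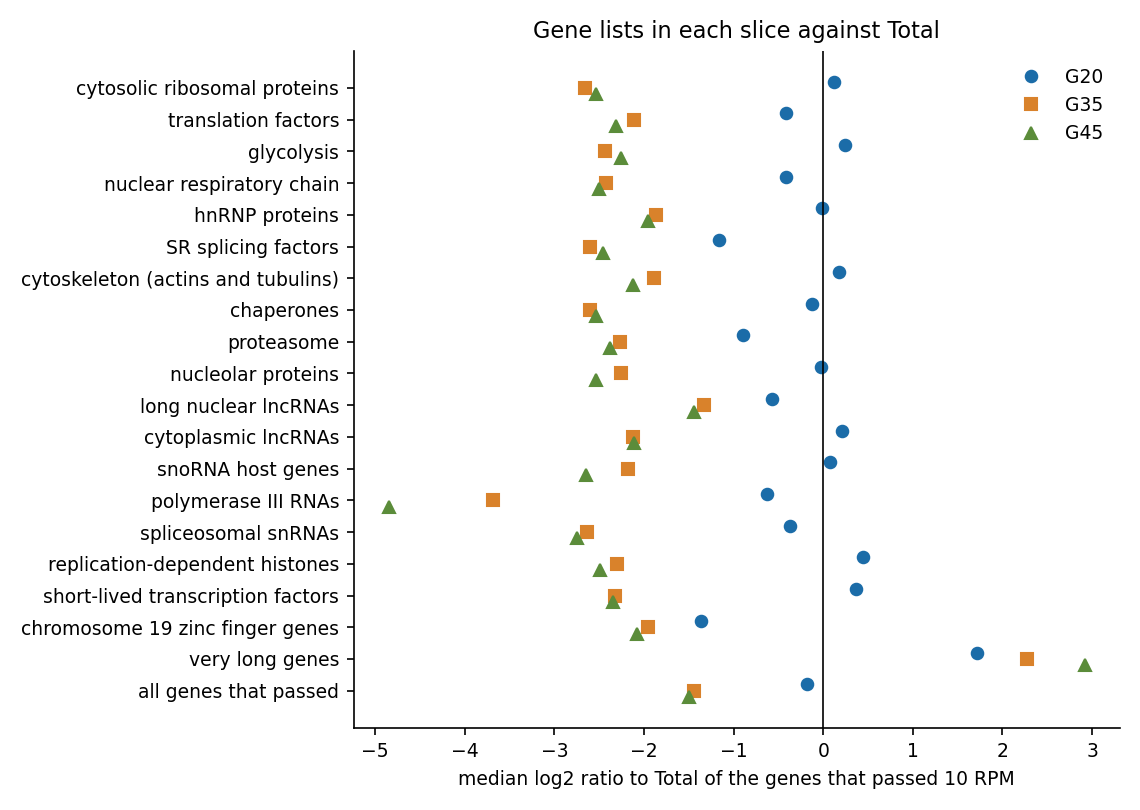
Median log2 ratio to Total of the members of each gene list that passed, 1 point per slice, with the median of all genes that passed as a row of its own. The very long genes have the highest medians, 1.72, 2.27 and 2.92, and the ribosomal protein genes lie at -2.66 in G35 and -2.54 in G45.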

How the data were processed

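G20, G35, G45 and Total were 1 single-end Illumina library each. Per the paper's methods, the authors removed adapters, left out reads under 10 bases, mapped the rest to hg19 with Bowtie and kept uniquely mapped reads with up to 2 T-to-C conversions with PARalyzer, which merged them into sites (groups tables) and binding sites (clusters tables). Versions are not given in the sources used here. The deposited read counts and conversion counts per site are raw. The clusters tables also give a mode score, a fraction deposited by the authors and not used here. No table held columns of other samples.

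Sites were assigned to GENCODE release 44 genes, on hg19 coordinates, by the midpoint on the same strand: exons of small RNA genes came first, then exons of protein-coding genes, lncRNAs and others, then introns. Left out first were the mitochondrial chromosome and ribosomal RNA loci, taken from GENCODE, from the authors' cluster annotation, and from matches to the ribosomal DNA of contig GL000220.1 (blastn 2.17.0, bwa 0.7.19-r1273). Counts were scaled to RPM of reads in genes; 1 RPM was added before log2, genes needed 10 RPM in the slice or Total, and a call needed a 4-fold difference. Counts ran from 2119030 to 9711523 reads in genes per library, and a count of 0 allows up to 1.39 (G20), 1.42 (G35), 1.25 (G45) and 0.309 RPM (Total), the level of 3 reads. With 1 library per group no test was made; ratios have exact Clopper-Pearson 95% intervals. Python 3.11.15 with pandas 2.3.3 and scipy 1.17.1 was used. The calls were tested on simulated counts with known folds. The assignment was checked by a direct search of the same annotation, for a sample of G45 sites on a single chromosome.

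Named genes were, in each slice, the 8 protein-coding genes and 3 lncRNAs farthest above and below Total with at least 5 sites in the higher library, no site with over 50% of its reads and 50 RPM there; the 5 small RNA genes farthest each way; the 3 highest genes with 1 dominant site; the 2 highest and 2 lowest members of a gene list; and the 3 genes with the most reads in Total. Genes without an approved symbol were passed over, and some genes that the rule names are not reported here. ZNF229, the snoRNAs and miRNAs of the sequence lists, and other examples outside this rule were chosen after their values were seen. The members and lists were chosen with earlier results of these data known. The matching of sites to mature miRNA sequences (without chromosome 8), the counts on the opposite strand and 3 alternatives (without tRNA loci, without almost fully converted sites, and with sites of 2 or more reads alone) were added after seeing the data. Of the lists, 11, 10 and 10 RNA polymerase III RNAs passed in G20, G35 and G45, with 2, 1 and 1 above and 5, 8 and 8 below. For the spliceosomal snRNAs 10, 9 and 9 passed, with 2, 0 and 0 above and 2, 6 and 7 below. Cytoskeleton genes had 20, 19 and 19 that passed, 1, 0 and 0 above and 0, 8 and 11 below. Nucleolar protein genes had 26, 24 and 24, with 1, 1 and 1 above and 0, 14 and 18 below. Cytoplasmic lncRNAs had 15 in each slice, with 3, 0 and 0 above and 2, 9 and 9 below. Over all genes 12.8%, 16.8% and 18.3% were above, and 5.02%, 33.1% and 34.9% below.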

Additional observations from a re-analysis of the deposited data

Results flagged for a closer look

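Reads in no annotated gene were no part of the comparisons above. They made up 48.1% of the reads outside the mitochondrial chromosome and ribosomal RNA loci in G20, 55.0% in G35 and 57% in G45, against 15.5% in Total, which serves as the control here. These shares count reads whose site midpoint lay in no GENCODE gene on the same strand, reads on the opposite strand of a gene included. No sequence of other organisms was compared with these reads, and their source was not tested.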

How the results depend on the processing

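No paired analysis was possible because the groups compared hold 1 library each and so share fewer than 2 replicate numbers. Of 90 alternative gene counts 50 stayed within 1.5 times the reported count and 40 did not; where nothing else is said below, the cause was not tested. Genes above Total in G20 numbered 990 with RPM over all reads outside the left-out loci, 1158 with 5 RPM added, 848 with a minimum of 50 RPM, 1178 with exonic sites alone, 1155 without each gene's most-read site, 284 by number of sites, 188 with ribosomal loci kept and 3475 at a 2-fold threshold. Genes below Total in G20 numbered 2361 (RPM over all reads), 323 (5 RPM added), 371 (minimum 50 RPM), 330 (without the most-read site), 126 (number of sites), 4875 (clusters tables), 10430 (ribosomal loci kept), 3893 (2-fold) and 1324 (sites with 2 or more reads, chosen after seeing the data). With ribosomal loci kept, the 88.3% of G20 reads at those loci enter the divisor. In G35, genes above numbered 1247 (RPM over all reads), 1545 (5 RPM added), 1054 (minimum 50 RPM) and 3601 (number of sites), and genes below 7539, 2869, 2293 and 864 in the same order, 1073 centred on the median, 2394 without the most-read site and 8445 at 2-fold. In G45, genes above numbered 1324 (RPM over all reads), 1702 (5 RPM added), 1177 (minimum 50 RPM) and 4689 (number of sites), and genes below 8016, 2943, 2457 and 492 in the same order, 873 centred, 3252 with exonic sites alone, 1995 without the most-read site and 8643 at 2-fold.

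All 40 alternative shares moved by more than their counting interval. By number of sites, and then without each gene's most-read site, lncRNAs held 8.80% and 7.16% in G20, 14.9% and 12.4% in G35, 15.5% and 13.6% in G45, and 7.89% and 6.60% in Total. snRNAs held 0.0348% and 0.0149%, 0.0707% and 0.0117%, 0.0512% and 0.0185%, and 0.0154% and 0.0103%. snoRNAs held 0.0936% and 0.392%, 0.163% and 0.0632%, 0.153% and 0.0975%, and 0.0239% and 0.0608%. miRNAs held 0.0752% and 0.0280%, 0.131% and 0.0319%, 0.0816% and 0.0101%, and 0.0251% and 0.0216%. Introns held 54.4% and 42.7%, 70.9% and 74.6%, 72.1% and 76.4%, and 74.4% and 52.1% of protein-coding sites or reads. Depth limits single genes: a gene with no read in G35 can hold up to 1.42 RPM, and in Total up to 0.309 RPM.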

Other observations

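RNA polymerase III transcripts did not all stand below Total in G20. RN7SK, the 7SK RNA gene, had 321 RPM in G20, 106 reads in G35 and 39.6 RPM in G45, against 6.08 in Total, and RNY1 had 740.4 RPM in G20 against 134. Summed over all copies, 7SK RNA was nearer to Total, at 500.3, 155 and 248 RPM against 207. The spliceosomal and related snRNAs also differed among themselves in G20: RNU5E-1 had 435 RPM against 78.8 and RNU7-1, which processes histone mRNA ends, 51.1 against 4.12, whereas RNU2-2P had 4582 against 23022 and RNU4ATAC, of the minor spliceosome, 6.04 against 42.6. Copies of these genes share sequence, and reads that map to several places were not counted. RN7SK, RNU5E-1, RNU7-1, RNU2-2P and RNU4ATAC were each the highest or lowest of their list in G20.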
